A study of Arabidopsis thaliana with 12 samples.

Results

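COR15A, COR15B, LTI30, COR47 and LEA4-5 are 5 cold- and dehydration-linked genes of Arabidopsis thaliana that encode late embryogenesis abundant (LEA) proteins. They were taken by name, and each was read from the brightest probe set that maps to it alone, which made 5 of the 13355 genes that could be named. Each had 1 such probe set, and the loci are AT2G42540 (COR15A), AT2G42530 (COR15B), AT3G50970 (LTI30), AT1G20440 (COR47) and AT5G06760 (LEA4-5). RNA from roots was measured on 12 Affymetrix ATH1 arrays, with 1 array per sample and 3 biological replicates in each of 4 groups. The groups were ozs3 roots after 24 h at 4 °C, Col-0 roots after 24 h at 4 °C, ozs3 roots kept at 23 °C and Col-0 roots kept at 23 °C. The wild type was Col-0. The mutant, ozs3, stands for overly zinc sensitive 3 and has the Col-0 background, and the labels do not name its mutated gene. All plants were 4 weeks old, were grown hydroponically in short days, and differed in nothing else that the labels give.

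LEA proteins are small, very hydrophilic and largely unfolded in solution, and they accumulate in drying seeds and in tissues exposed to cold, drought or salt. The COR15 proteins are imported into plastids, where they stabilise membranes during freezing. LTI30 and COR47 are dehydrins, a class of LEA proteins with lysine-rich segments that bind membranes, and LEA4-5 belongs to a class linked to tolerance of water deficit. Many cold-regulated LEA genes are induced by the CBF transcription factors and by abscisic acid.

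The deposited values are log2 intensities made with RMA, and every level below is on that scale. The lowest correlation between arrays of 1 group was 0.994 and the highest 0.997, taken over probe sets. A probe set with a mean at or below 5 was treated as dim, which held for 28.3% of the 22746 tested. Differences are log2 values ± SE from limma, and a difference was called at a Benjamini-Hochberg adjusted p under 0.05 over all probe sets. Levels of different probe sets are not compared with each other, since probes differ in brightness.

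Of 16 listed root markers 3 had a named probe set (EXPA7, EXPA18 and XTH26, all root hair wall genes), and none of them was dim. Of 13 listed shoot markers 3 had one, of which the Calvin cycle genes PRK and SBPASE were dim and RCA, which encodes rubisco activase, averaged 6.96. None of the 10 listed seed markers was represented. The summed intensity of the 3 root markers, on a linear scale, was 975.4 to 1368 in ozs3 at 4 °C, 858 to 1282 in Col-0 at 4 °C, 1212 to 1774 in ozs3 at 23 °C and 1451 to 1788 in Col-0 at 23 °C. That of the shoot markers was 146.8 to 167.9, 125.8 to 155.2, 153.1 to 173.3 and 163.6 to 262.1 in the same 4 groups. XTH26 fell in the cold by 1.83 in ozs3 and by 0.81 in Col-0 (limma adjusted p = 4.54e-05 and 0.0218), and EXPA18 fell by 0.65 and 0.92 (0.00432 and 0.000349). EXPA7 was at 0.43 in ozs3 and −0.10 in Col-0 (limma adjusted p = 0.0568 and 0.702), so the 3 root markers did not move alike. At 4 °C, XTH26 was lower in ozs3 than in Col-0 (−1.28, limma adjusted p = 0.0052), while EXPA7 (0.55, 0.054) and EXPA18 (−0.04, 0.909) were not called. Of the shoot markers RCA fell by 0.62 in Col-0 (limma adjusted p = 0.00854) and was at −0.09 in ozs3 (0.677), and PRK and SBPASE were not called in either genotype. The part of these transcripts in the changes below was not tested. In whole roots, fewer cells of a type and less RNA per cell cannot be told apart.

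All 5 genes rose at 4 °C in both genotypes. In ozs3 5 of 5 were called higher, where 24.9% of all probe sets were, and in Col-0 5 of 5, where 20.4% were. Every array at 4 °C lay above every array at 23 °C for all 5 genes, as it did for 14.8% of all probe sets. The median difference over the 5 genes was 3.87 in ozs3 and 3.92 in Col-0, against 0.05 and −0.003 over all probe sets. None of these 10 calls changed under any alternative processing. The 5 genes were chosen with earlier results of these data known. The shares over all probe sets are therefore given for scale and test nothing.

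COR15A, the first of the plastid proteins, stood at 11.39, 11.29 and 11.60 in ozs3 at 4 °C, against 5.24, 5.23 and 7.60 in ozs3 at 23 °C. In Col-0 it stood at 10.74, 10.41 and 10.89 at 4 °C, against 5.23, 4.64 and 5.25 at 23 °C. The ozs3 arrays at 23 °C include 1 that lies far above the other two, yet it is still well below any array at 4 °C. The gene rose by 5.40 ± 0.46 in ozs3 (limma adjusted p = 3.87e-07), the largest rise of all 22746 probe sets there, and by 5.64 ± 0.46 in Col-0 (limma adjusted p = 3.57e-07), the third largest. Its level followed the order ozs3 at 4 °C, Col-0 at 4 °C, ozs3 at 23 °C and Col-0 at 23 °C, and the last 2 groups overlapped.

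COR15B, which encodes the second plastid protein and is the gene next to COR15A on chromosome 2, stood at 10.07, 10 and 9.96 in ozs3 at 4 °C, against 4.82, 4.65 and 6.26 in ozs3 at 23 °C. In Col-0 it stood at 9.50, 9.28 and 9.02 at 4 °C, against 5.09, 5.59 and 5.09 at 23 °C. The same array of ozs3 at 23 °C was again the highest of its group. The rise was 4.77 ± 0.31 in ozs3 (limma adjusted p = 4e-08) and 4.01 ± 0.31 in Col-0 (limma adjusted p = 2.38e-07), the fifth and the 13th largest. At 23 °C several arrays of COR15A, COR15B and LEA4-5 lay at or below the dim limit of 5, so these rises may be understated, which was not tested.

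**Figure D1:**
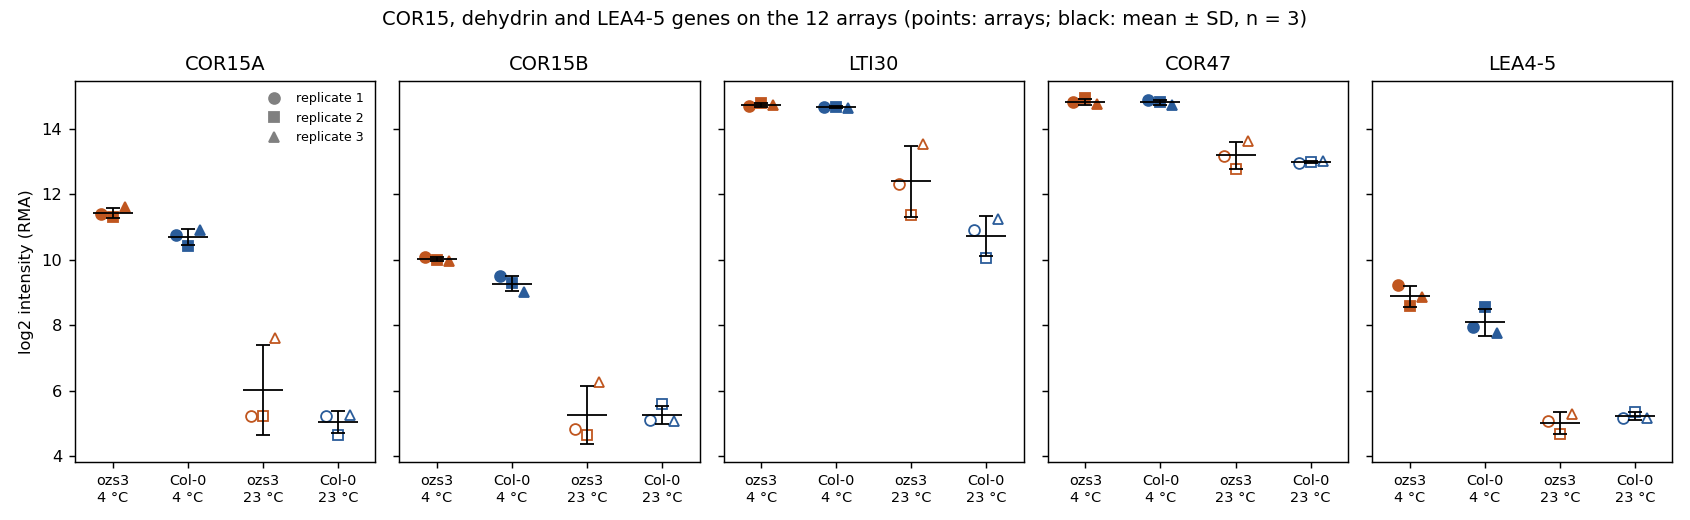
Log2 intensity (y axis) of the 5 genes on each array (points, marker shape by replicate) in the 4 groups (x axis), with mean ± SD in black (n = 3). Every 4 °C point lies above every 23 °C point of its gene, LTI30 and COR47 lie near the top of the scale at 4 °C, and replicate 3 of ozs3 at 23 °C is the highest of its group in each panel.

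LTI30, a dehydrin first described as a low-temperature-induced gene, stood at 14.68, 14.79 and 14.72 in ozs3 at 4 °C, against 12.30, 11.35 and 13.52 in ozs3 at 23 °C. In Col-0 it stood at 14.66, 14.66 and 14.62 at 4 °C, against 10.91, 10.04 and 11.23 at 23 °C. The cold arrays of both genotypes lay within a narrow band, while the 23 °C arrays were spread out and higher in ozs3. The rise was 2.34 ± 0.40 in ozs3 (limma adjusted p = 0.000226) and 3.92 ± 0.40 in Col-0 (limma adjusted p = 2.74e-06), ranking 186th and 17th among all probe sets.

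COR47, an acidic dehydrin, stood at 14.80, 14.92 and 14.74 in ozs3 at 4 °C, against 13.15, 12.77 and 13.62 in ozs3 at 23 °C. In Col-0 it stood at 14.87, 14.79 and 14.73 at 4 °C, against 12.93, 12.98 and 13.01 at 23 °C. The gene was already bright without cold, and its cold arrays overlapped between genotypes. The rise was 1.64 ± 0.15 in ozs3 (limma adjusted p = 9.63e-07) and 1.82 ± 0.15 in Col-0 (limma adjusted p = 5.01e-07), 3.11-fold and 3.54-fold.

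At 4 °C these 2 dehydrins stood at the top of the array scale. The mean of COR47 was the highest of all 22746 probe sets in ozs3 and the second highest in Col-0, and that of LTI30 was the third and the fourth. LTI30 was 0.09 below the highest mean in ozs3 and 0.19 below it in Col-0. At 23 °C LTI30 was 2.63 and 4.26 below the highest mean in ozs3 and Col-0. How far the top of the scale limits the measured cold level of these genes was not tested.

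LEA4-5 stood at 9.22, 8.58 and 8.84 in ozs3 at 4 °C, against 5.08, 4.66 and 5.30 in ozs3 at 23 °C. In Col-0 it stood at 7.93, 8.55 and 7.76 at 4 °C, against 5.15, 5.36 and 5.16 at 23 °C. The lowest cold array of ozs3 lay just above the highest cold array of Col-0, and at 23 °C the genotypes overlapped. The rise was 3.87 ± 0.21 in ozs3 (limma adjusted p = 8.37e-09), the 19th largest, and 2.86 ± 0.21 in Col-0 (limma adjusted p = 1.45e-07), the 62nd largest.

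The cold responses of the 5 genes were compared pair by pair, as the within-array difference of 2 genes at 4 °C minus that at 23 °C, averaged over genotypes. Of the 10 pairs 8 differed at an adjusted p under 0.05 in a two-sided exact permutation test of temperature labels within genotype, whose smallest raw p is 0.005. COR15A responded more than COR15B by 1.13 (exact permutation adjusted p = 0.0188), than LTI30 by 2.39 (0.0125), than LEA4-5 by 2.15 (0.0167) and than COR47 by 3.79 (0.0125). COR15B responded more than LEA4-5 by 1.02 (exact permutation adjusted p = 0.0167) and than COR47 by 2.66 (0.0125). COR47 had the smallest measured response, lower than that of LTI30 by 1.40 (exact permutation adjusted p = 0.0188) and than that of LEA4-5 by 1.64 (0.0125). The comparisons of COR47 and of LTI30 all carry the limit at the top of the scale given above, so differences from these 2 genes are differences of measured rises. COR15A, COR15B and LEA4-5 lay near or below the dim limit of 5 on several arrays at 23 °C. Differences among these genes are likewise differences of measured rises.

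The remaining pairs both involve LTI30. COR15B responded more than LTI30 by 1.26 at an exact permutation adjusted p of 0.05, which does not pass, and the difference was 2.43 in ozs3 and 0.09 in Col-0. Leaving out 1 Col-0 array made it pass in 2 cases, replicate 2 of the 23 °C group (1.51, exact permutation adjusted p = 0.01) and replicate 3 of the 4 °C group (1.31, 0.0444). LTI30 and LEA4-5 differed by −0.24 over both genotypes (exact permutation adjusted p = 0.66). Within genotypes the value was −1.53 in ozs3 and 1.06 in Col-0. The LTI30 to LEA4-5 ratio on all 3 cold arrays of ozs3 lay below that on its 3 control arrays, and the opposite held in Col-0. That contrast between genotypes was not tested.

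Without cold, ozs3 differed from Col-0 in 1 of the 5 genes. LTI30 was higher in ozs3 at 23 °C, at 12.39 ± 1.09, against 10.73 ± 0.62 in Col-0 (SD, n = 3 each), with no overlap between the arrays given above, as for 12.6% of all probe sets in this direction. The difference was 1.66 ± 0.40 (limma adjusted p = 0.0255), or 3.16-fold, and only 5 probe sets had a larger positive one. Over all probe sets 3.17% were called higher and 3.17% lower. Among the 23 °C arrays, leaving out Col-0 replicate 1 (adjusted p = 0.051), Col-0 replicate 2 (0.113) or ozs3 replicate 1 (0.0691) ended the call, as did array weights (1.15, adjusted p = 0.066), a robust variance prior (0.064) or only the arrays compared (0.0935). Without ozs3 replicate 3 the difference was smaller, at 1.09, and was still called.

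The other genes were not called at 23 °C. COR15A was at 0.98 ± 0.46 (limma adjusted p = 0.253), which became 0.19 without ozs3 replicate 3. COR47 was at 0.20 ± 0.15 (95% interval −0.13 to 0.54), COR15B at −0.01 ± 0.31 (−0.68 to 0.66) and LEA4-5 at −0.21 ± 0.21 (−0.66 to 0.24), and the arrays of the 2 genotypes overlapped for each. Without ozs3 replicate 3, COR15B was at −0.52 and COR47 at −0.01, still not called.

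At 4 °C, LEA4-5 was higher in ozs3, at 8.88 ± 0.32, against 8.08 ± 0.42 in Col-0 (SD, n = 3 each). The difference was 0.80 ± 0.21 (limma adjusted p = 0.0205), or 1.74-fold, and 6.42% of all probe sets were called higher and 8.2% lower. Among the 4 °C arrays, leaving out ozs3 replicate 1 (adjusted p = 0.0791), ozs3 replicate 3 (0.0518), Col-0 replicate 1 (0.0754) or Col-0 replicate 3 (0.0874) ended this call.

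All 3 cold arrays of ozs3 lay above all 3 of Col-0 for 4 of the 5 genes (LEA4-5, COR15A, COR15B and LTI30), as for 15.5% of all probe sets. For LTI30 the gap of the means was only 0.08. The differences of the COR15 genes, 0.75 ± 0.46 for COR15A (limma adjusted p = 0.318) and 0.74 ± 0.31 for COR15B (0.135), were not called in the fit to all 12 arrays, whose error includes the spread of ozs3 at 23 °C. Without ozs3 replicate 3 at 23 °C, both were called at the same size (limma adjusted p = 0.0089 and 0.00469), as they were in a fit to the 6 cold arrays alone (0.00843 and 0.0054). LTI30 differed by 0.08 (95% interval −0.78 to 0.94) and COR47 by 0.02 (−0.31 to 0.35), both at the top of the scale. These intervals also include the spread at 23 °C. For LTI30 the SD was 1.09 in ozs3 and 0.62 in Col-0 at 23 °C, against 0.06 and 0.03 at 4 °C.

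**Figure D2:**
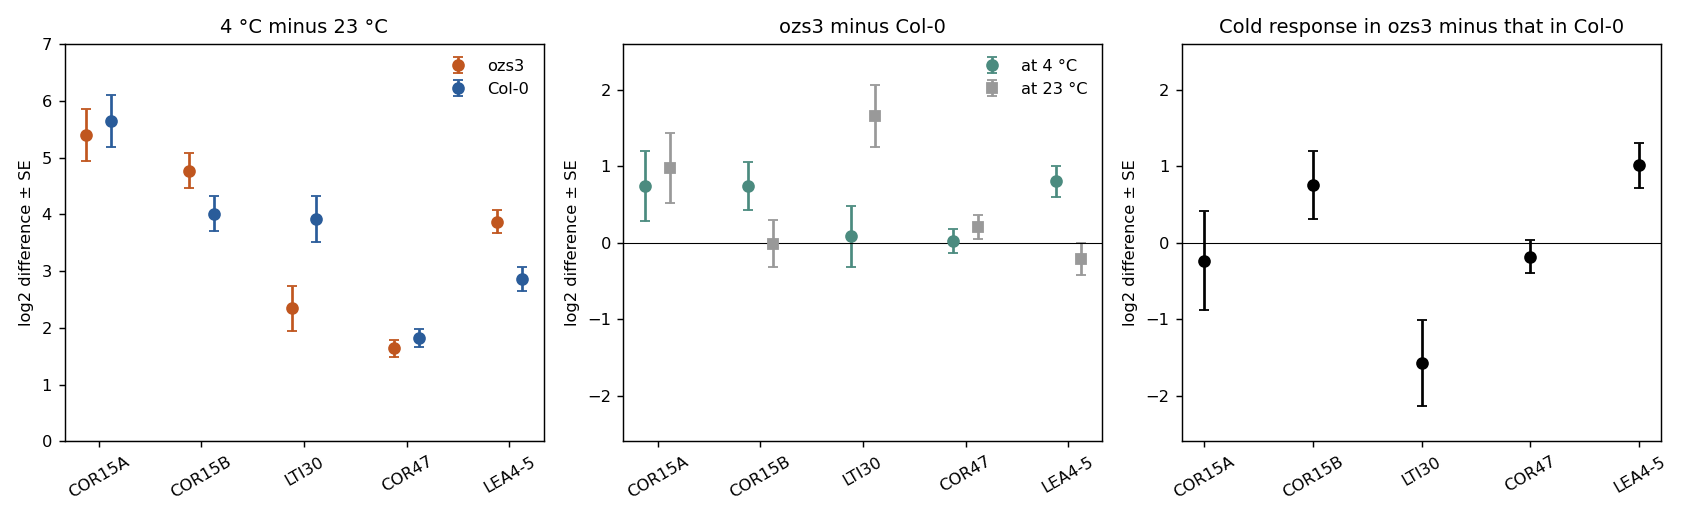
Log2 differences ± SE from limma for the 5 genes (x axis): 4 °C minus 23 °C in each genotype (left), ozs3 minus Col-0 at each temperature (middle), and the cold response in ozs3 minus that in Col-0 (right). The genotype difference of LTI30 stands at 23 °C (1.66) and that of LEA4-5 at 4 °C (0.80), and the right panel places LTI30 at −1.58, which was not called, and LEA4-5 at 1.01, which was.

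The interaction, a test of unequal cold responses in the 2 genotypes, was called for 1 of the 5 genes. LEA4-5 responded more in ozs3 by 1.01 ± 0.30 (limma adjusted p = 0.0458), where 4.3% of all probe sets were called in that direction. The call sits close to the threshold. It was lost in 9 of the 12 fits that left out 1 array, with adjusted p up to 0.109, after a repeated quantile normalization (0.0514) and with a robust variance prior (0.0501), while the value stayed between 0.84 and 1.25. The arrays whose removal left the call in place were ozs3 replicate 3 at 23 °C, ozs3 replicate 2 at 4 °C and Col-0 replicate 2 at 4 °C.

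The interaction of LTI30 was −1.58 ± 0.57, on the side of a smaller measured rise in ozs3, and was not called (limma adjusted p = 0.0954), while 5.82% of all probe sets were called lower. It was called with the replicate number as a block (adjusted p = 0.0343) and without ozs3 replicate 2 at 23 °C (−2.10, adjusted p = 0.0161). LTI30 differed between genotypes by 1.66 at 23 °C and by 0.08 at 4 °C, where it lay near the top of the scale. How far that top shapes the interaction was not tested. COR15B was at 0.76 ± 0.44 (limma adjusted p = 0.306), and without ozs3 replicate 3 at 23 °C it was called at 1.26 (0.00452). COR15A (−0.23 ± 0.65) and COR47 (−0.18 ± 0.22) were not called, with 95% intervals of −1.63 to 1.16 and −0.65 to 0.28.

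Averaged over both temperatures, none of the 5 genes was called between genotypes, where 5.34% of all probe sets were called higher and 5.98% lower. All 5 differences were above 0, against a median of 0.004 over all probe sets. Before adjustment COR15A (limma unadjusted p = 0.0189) and LTI30 (0.0086) ranked only 3899th and 2980th by p among the 22746 probe sets. LTI30 was at 0.87 ± 0.28 (limma adjusted p = 0.0656) and COR15A at 0.86 ± 0.32 (0.11). With the replicate number as a block both were called (adjusted p = 0.0198 and 0.0327). COR15A was also called without ozs3 replicate 3 at 23 °C, at the smaller size of 0.47 (adjusted p = 0.0287). LTI30 was also called with an intensity trend (0.0479), when Col-0 replicate 3 (1.00, 0.0474) or ozs3 replicate 2 (1.13, 0.00714) at 23 °C was left out.

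Replicate 3 of ozs3 at 23 °C had higher intensities of these genes than the other arrays of its group. It was the highest of the 3 for all 5 genes, as it was for 32% of all probe sets. Its excess over the mean of the other two was 2.36 for COR15A, 1.70 for LTI30, 1.53 for COR15B, 0.66 for COR47 and 0.43 for LEA4-5, against a median of −0.02 over all probe sets. Only 4 probe sets exceeded COR15A in this, and LTI30 and COR15B ranked ninth and 14th. The 3364 probe sets that rose in the cold in both genotypes had a median excess of 0.02, and 42.4% of them were highest on that array. The 28 other named LEA genes had a median excess of −0.001, and 11 were highest on it, but 20 of the 28 were dim on every array. Among the bright ones that rose in the cold in both genotypes, AT2G23120 (11.91, against 11.39 and 11.14) and AT3G02480 (6.26, against 5.94 and 5.89) were also highest there. AT4G38410 (6.97, against 6.96 and 7.03) and HIRD11 (13.48, against 13.55 and 13.41) were not.

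Replicate 2 of that group was the lowest of the 3 for each of the 5 genes, by 1.04 below the group mean for LTI30, 0.79 for COR15A, 0.60 for COR15B, 0.41 for COR47 and 0.35 for LEA4-5. For COR15A replicate 1 was as low within rounding (−0.79), and for COR15B replicate 1 was at −0.42. The high replicate 3 is part of each group mean, which makes the deviations of the other arrays more negative. In Col-0 at 23 °C the genes did not share an order, since LTI30 and COR15A were lowest in replicate 2 (−0.69 and −0.40) while COR15B and LEA4-5 were highest there (0.33 and 0.13). Deviations at 4 °C were at most 0.27 for the COR15 genes, 0.10 for the dehydrins and 0.47 for LEA4-5.

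**Figure D3:**
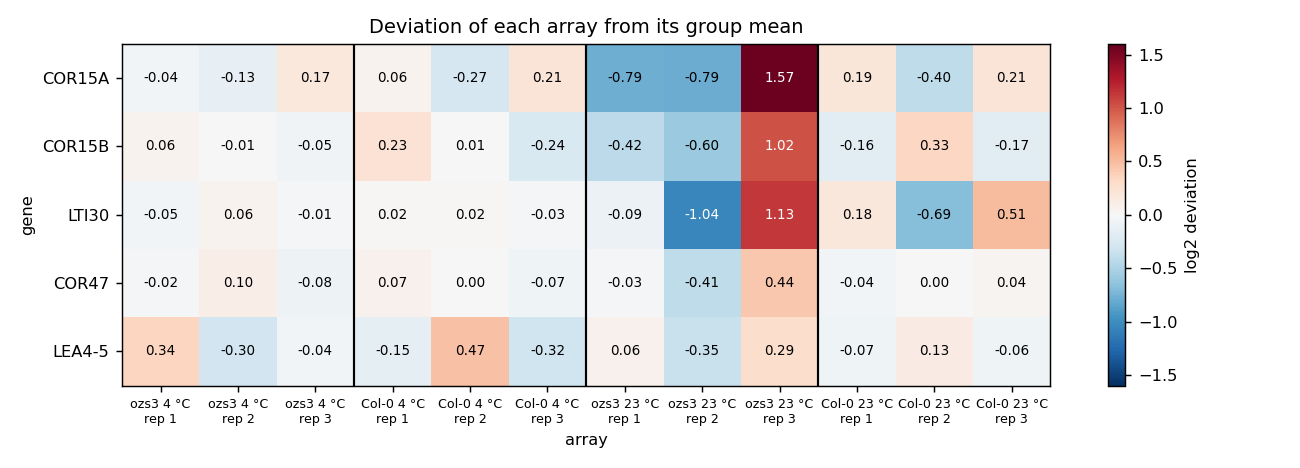
Deviation of each array (x axis) from its group mean for the 5 genes (rows), in log2 units by colour and printed value. The column of ozs3 at 23 °C replicate 3 is positive for every gene (1.57 for COR15A, 0.29 for LEA4-5), and that of replicate 2 is negative for every gene.

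The genes whose deviations from their group means followed the mean deviation of the 5 most closely over the 12 arrays were AT1G68500 (Pearson r = 0.95), AT1G16850 (0.94), the LEA gene AT2G23120 (0.93), AT5G49780 (0.92) and AT4G30650 (0.91), of a family responsive to low temperature and salt. These correlations rest largely on the 3 arrays of ozs3 at 23 °C. There AT1G68500 deviated by 1.90 on replicate 3, against −0.34 and −1.56 on replicates 1 and 2, and AT1G16850 by 1.05, against −0.15 and −0.90. AT5G49780 moved least, at 0.19 on replicate 3.

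Most other LEA genes were not called in the cold, 17 of 28 in ozs3 and 23 of 28 in Col-0. Besides the 5 genes, 44 LEA genes were listed, of which these 28 had a named probe set, and 20 of the 28 were dim on every array. In ozs3 10 of the 28 rose and 1 fell in the cold, where 24.9% of all probe sets rose and 26.2% fell. In Col-0 4 rose and 1 fell, where 20.4% rose and 23.5% fell. Their median difference was 0.15 in ozs3 and 0.03 in Col-0. Of the 10 that rose in ozs3 6 were dim, with rises of 0.24 to 0.43, and 16.9% of all dim probe sets were called higher in ozs3, against 3.94% in Col-0. The count in ozs3 was 6 after a repeated quantile normalization, 16 with 1 common median, 6 without ozs3 replicate 2 at 23 °C and 5 without ozs3 replicate 3 at 4 °C.

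The bright LEA genes that rose in both genotypes were AT4G38410, AT2G23120, AT3G02480 and HIRD11. The dehydrin gene AT4G38410 stood at 9.63, 9.31 and 9.52 in ozs3 at 4 °C, against 6.96, 7.03 and 6.97 in ozs3 at 23 °C, a rise of 2.50 ± 0.11 (limma adjusted p = 2.68e-09). In Col-0 AT4G38410 stood at 9.04, 9.07 and 8.69 at 4 °C, against 6.85, 6.99 and 6.94 at 23 °C, a rise of 2.01 ± 0.11 (limma adjusted p = 1.59e-08). All of its cold arrays were far above its control arrays, and in the cold ozs3 was higher than Col-0 by 0.56 ± 0.11 (limma adjusted p = 0.0043). The interaction of 0.50 ± 0.15 was not called (limma adjusted p = 0.0586), but was with the replicate number as a block (0.0479).

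AT2G23120 rose by 2.50 ± 0.15 in ozs3 (limma adjusted p = 1.96e-08) and by 2.45 ± 0.15 in Col-0 (3.62e-08), with no called difference between genotypes. AT3G02480 averaged 7.43 ± 0.12 in ozs3 at 4 °C, against 6.03 ± 0.20 in ozs3 at 23 °C, and 6.18 ± 0.06 in Col-0 at 4 °C, against 5.57 ± 0.10 in Col-0 at 23 °C (SD, n = 3 each). Its rise was 1.40 ± 0.10 in ozs3 and 0.61 ± 0.10 in Col-0, and the interaction of 0.79 ± 0.15 was called (limma adjusted p = 0.00548). HIRD11, a dehydrin gene that was bright in every group, rose by 0.24 ± 0.08 in ozs3 (limma adjusted p = 0.0221) and by 0.29 ± 0.08 in Col-0 (0.00924), and the ozs3 call was lost without ozs3 replicate 2 at 23 °C (0.0896) or replicate 2 or 3 at 4 °C (0.0722 and 0.0563).

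AT2G46140 fell by 0.45 ± 0.12 in ozs3 (limma adjusted p = 0.0068) and by 0.46 ± 0.12 in Col-0 (0.00714). The dim genes that rose in ozs3 were AT4G39130, a dehydrin gene (0.40), AT5G27980 (0.43), AT2G03740 (0.35), AT2G23110 (0.35), AT3G17520 (0.27) and AT4G36600 (0.24). None of them was called in Col-0. The calls of AT2G03740, AT2G23110, AT3G17520 and AT4G36600 were each lost after a repeated quantile normalization (adjusted p between 0.0582 and 0.281) and without ozs3 replicate 3 at 4 °C (between 0.0548 and 0.124). The dim genes LEA, AT5G53820, AT1G72100, ATM10 and LEA18 were called in neither genotype, with values between −0.24 and 0.23. Nor were the 3 remaining bright genes, AT2G44060, AT3G53770 and DI21, which are named here, after their values were seen, because they complete the 8 bright ones, with values between −0.32 and 0.14. Some of these were called under an alternative. In Col-0, AT5G53820 was called at −0.24 with the replicate number as a block (adjusted p = 0.0393), at −0.34 without replicate 3 at 23 °C (0.0478) and at −0.35 without replicate 2 at 4 °C (0.0398), and AT3G53770 at −0.51 without replicate 1 at 4 °C (0.0312). In ozs3, LEA18 was called without replicate 1 at 4 °C (0.36, adjusted p = 0.00348) and with array weights (0.27, 0.0243), and LEA without replicate 1 at 4 °C (0.23, 0.0474). ATM10 was called in ozs3 with an intensity trend (0.20, adjusted p = 0.0418), without replicate 1 at 23 °C (0.26, 0.0388) and without replicate 2 at 4 °C (0.24, 0.05 after rounding). With 1 common median, LEA18, ATM10, LEA, AT1G72100 and DI21 were called higher in ozs3, at 0.27 to 0.37 (adjusted p between 0.0057 and 0.0399).

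**Figure D4:**
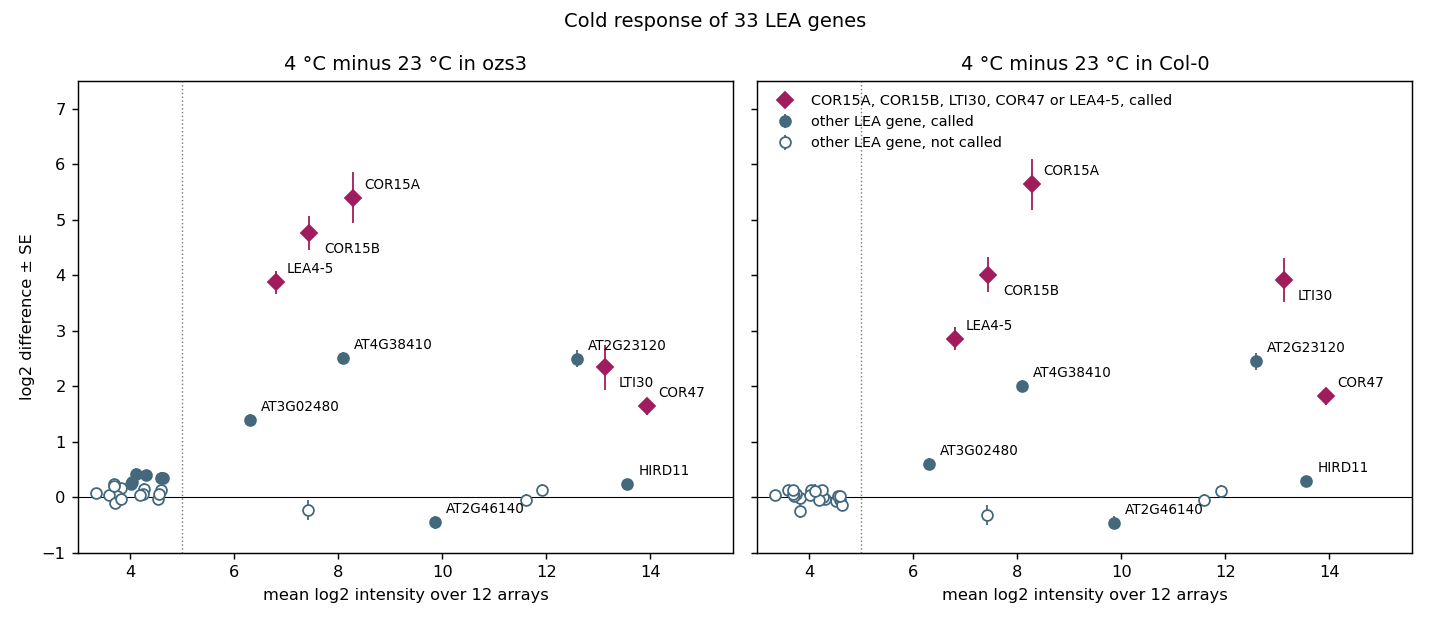
Cold response (log2 difference ± SE, y axis) of 33 LEA genes against their mean log2 intensity over the 12 arrays (x axis), in ozs3 (left) and Col-0 (right), with the dim limit of 5 as a dotted line. The 5 genes (diamonds) and 3 others (AT4G38410, AT2G23120 and AT3G02480) stand well above the rest, most of which are dim and near 0.

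Among other listed genes of the cold regulon, 2 of 19 had a named probe set and both rose in both genotypes. COR27, a cold gene tied to the circadian clock, rose by 4.62 ± 0.25 in ozs3 (limma adjusted p = 9.59e-09) and by 3.86 ± 0.25 in Col-0 (6.26e-08). On the 3 arrays of ozs3 at 23 °C, COR27 stood at 4.38, 4.27 and 5.55, so replicate 3 was again the highest. AT4G33980 rose by 2.64 ± 0.19 in ozs3 and 1.33 ± 0.19 in Col-0 (limma adjusted p = 8.12e-08 and 5.09e-05). Its level at 23 °C was 7.38 ± 0.37 in ozs3, against 8.60 ± 0.35 in Col-0 (SD, n = 3 each, difference −1.23, limma adjusted p = 0.00165), while at 4 °C the genotypes differed by 0.08 (0.827). Of 34 listed regulators 1 had a named probe set: STZ, a zinc finger repressor, rose by 2.39 ± 0.24 in ozs3 (limma adjusted p = 1.78e-06) and by 1.49 ± 0.24 in Col-0 (0.000157). The interactions of COR27 (0.76, limma adjusted p = 0.203) and STZ (0.90, 0.112) were not called. Without ozs3 replicate 3 at 23 °C both were (1.17, 0.00314 and 1.22, 0.0106). That of STZ was also called with array weights (0.0251) and without Col-0 replicate 2 at 23 °C (0.0411). None of 13 listed abscisic acid response genes was represented.

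The genes with patterns most like those of the 5 were ranked by the root mean square of the log2 difference over the 12 arrays, after each profile was centred on its own mean. For COR15B the nearest was COR27 (0.196), followed by AT5G20790 (0.309) and AT3G17130 (0.365), of the pectin methylesterase inhibitor family. For COR15A they were AT1G68500 (0.585), COR15B (0.764) and COR27 (0.803). LTI30 lay nearest to the expansin-like gene EXLA3 (0.556), AT4G30650 (0.574) and AT5G01790 (0.584). COR47 lay nearest to AT1G74750 (0.133), the glycosyltransferase gene UGT74D1 (0.157) and AT5G13900 (0.169). LEA4-5 lay nearest to the expansin-like gene EXLA2 (0.276), AT3G55580 (0.321) and AT2G34930 (0.378). Apart from COR15B, none of these 15 nearest places was held by one of the 5 genes or by another LEA gene.

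Apart from COR15A and COR15B themselves, the only chromosomal neighbours with values here were AT2G42520, AT1G20430 and AT5G06770. They changed by less than 1 log2 unit in the cold. Next to COR15B on the side away from COR15A, the RNA helicase gene AT2G42520 rose by 0.83 in ozs3 (limma adjusted p = 1.73e-06) and 0.52 in Col-0 (0.000142). Beside COR47, AT1G20430 fell by 0.82 in ozs3 (limma adjusted p = 1.28e-05) and by 0.88 in Col-0 (8.83e-06). Beside LEA4-5, the zinc finger gene AT5G06770 fell by 0.25 in ozs3 (limma adjusted p = 0.0288) and was at 0.18 in Col-0 (0.115). The ozs3 call was lost after a repeated quantile normalization (−0.10) and with 1 common median (−0.11). Under these settings the gene was called higher in Col-0 (0.23 in both, adjusted p = 0.0341 and 0.0388). An intensity trend (adjusted p = 0.059) or only the arrays compared (0.0534) also ended the ozs3 call. So did leaving out ozs3 replicate 1 at 23 °C (0.133) or ozs3 replicate 2 or 3 at 4 °C (0.0726 and 0.0836). The dehydrin genes ERD10, beside COR47, and XERO1, beside LTI30, were not analysed here, nor were PLP3a, AT2G42550 and AT5G06755.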

How the data were processed

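Per the submitters' processing notes, the authors made the deposited values with RMA (background correction, normalization between arrays, probe set summary; version not given in the sources used here). By their range, 2.91 to 15.0, the values the authors deposited are log2 intensities after RMA. Precision is limited by the number of arrays. The file held 22810 probe sets, of which 64 were Affymetrix controls and were not tested. A gene was read from its brightest probe set of that gene alone (13513 probe sets, with 503 of several genes and 8730 unnamed), and TAIR10.1 gave locus names and neighbours only.

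With limma 3.58.1 (R 4.3.3), 1 mean per group was fitted over the 12 arrays (lmFit and eBayes, 8 residual and 5.42 prior degrees of freedom), with Benjamini-Hochberg adjustment within each contrast. The script was tested on simulated data. Named genes are the 5 genes, up to 6 per list by smallest adjusted p over the cold contrasts, the 3 nearest profiles, the 5 nearest in deviations, and chromosomal neighbours. The genes and lists were chosen with earlier results of these data known. Alternatives were a replicate block, 2 renormalizations, an intensity trend, a robust prior, array weights, only the arrays compared, dim probe sets left out, and each array left out.

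Equal replicate numbers were checked for pairing by correlating deviations from group means. All 3 pairs passed the limit of 0.1 between temperatures in Col-0 (lowest 0.195), between genotypes at 23 °C (lowest 0.294) and between genotypes at 4 °C (lowest 0.198). In ozs3, replicate 2 did not (0.081, against 0.320 and 0.310). Any pairing thus rests on the data, not the labels. The main fit did not use it, and the replicate block was run only as an alternative.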

Additional observations from a re-analysis of the deposited data

Results flagged for a closer look

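Some named genes were called in the test of the interaction, given as the response in ozs3 minus that in Col-0 (limma, adjusted over all probe sets). Over all probe sets 4.3% were called higher and 5.82% lower. The genes below were picked because they were called, so their number shows nothing beyond these shares. LEA4-5 differed by 1.01 (3.87 in ozs3, 2.86 in Col-0, adjusted p = 0.0458). The LEA4-5 call was lost in 9 of the 12 fits that left out 1 array. It was also lost after a repeated quantile normalization (0.0514) and with a robust variance prior (0.0501). The LEA gene AT3G02480 differed by 0.79 (1.40 and 0.61, adjusted p = 0.00548). AT4G33980, of the cold regulon, differed by 1.31 (2.64 and 1.33, adjusted p = 0.00803), with a difference of ozs3 from Col-0 of −1.23 at 23 °C (adjusted p = 0.00165) and of 0.08 at 4 °C (0.827), and the expansin-like gene EXLA2, nearest in pattern to LEA4-5, by 0.74 (3.40 and 2.66, adjusted p = 0.0218). EXLA2 was named only for its likeness to LEA4-5 over these same 12 arrays, so its interaction is not separate from that of LEA4-5. The EXLA2 call was lost without ozs3 replicate 1 or 2 at 23 °C (0.0559 and 0.0578). AT5G06770, the neighbour of LEA4-5, differed by −0.42 (−0.25 and 0.18, adjusted p = 0.0429), a call that was lost after a repeated quantile normalization (−0.33, adjusted p = 0.0915) or with 1 common median (−0.34, 0.0774). That call was also lost with an intensity trend (0.0789) and in most fits that left out 1 array, with adjusted p up to 0.109.

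The cold change of the LTI30 to LEA4-5 ratio was −1.53 in ozs3 and 1.06 in Col-0. All cold arrays lay below all control arrays in ozs3 and above them in Col-0. In Col-0 the gap was narrow, at 6.11 on the lowest cold array against 6.07 on the highest control array. LTI30 stood near the top of the scale at 4 °C, and how far this limits the ratio was not tested. The difference of −2.59 between genotypes was not tested.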

How the results depend on the processing

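None of the 10 cold calls of the 5 genes changed under any alternative, and no called value changed sign. The genotype calls of LTI30 at 23 °C and LEA4-5 at 4 °C rest on few arrays, and the cause of each loss was not tested. LTI30 at 23 °C was not called with a robust prior (1.66, adjusted p = 0.064), array weights (1.15) or only the arrays compared (1.66, 0.0935), and ran from 1.09 to 2.18 with each array left out. LEA4-5 at 4 °C ran from 0.63 to 1.04, and its interaction was 0.97 after a repeated quantile normalization and 1.01 with a robust prior, both not called, and 0.84 to 1.25 with each array left out. At 4 °C with only the arrays compared, COR15A (0.75) and COR15B (0.74) were called, and with each array left out they ran from 0.61 to 0.85 and from 0.62 to 0.86. With the replicate block, the interaction of LTI30 (−1.58) and the mean genotype difference of LTI30 (0.87) and COR15A (0.86) were called, and no other call of the 5 genes changed. The mean difference of LTI30 was also called with an intensity trend (0.87). With each array left out, the interaction ran from 0.46 to 1.26 for COR15B and from −2.10 to −1.01 for LTI30, and the mean difference from 0.47 to 1.06 for COR15A and from 0.59 to 1.13 for LTI30.

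Over all probe sets 1442 were called between genotypes at 23 °C, 2253 with the replicate block, 2323 with array weights and 767 to 1551 with each array left out. The interaction count of 2300 ran from 1439 to 2279 with each array left out. With 1 common median the median cold difference in ozs3 was 0.18, against 0.05, and the share of calls that were higher was 66.1%, against 48.8%. That share was 60.7%, against 43.9%, between genotypes at 4 °C, and 64%, against 42.5%, for the interaction. The 10 other LEA genes higher in ozs3 became 6 after a repeated quantile normalization, 16 with 1 common median, 4 without dim probe sets and 5 to 10 with each array left out.

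COR15B minus LTI30 passed after a repeated quantile normalization (1.38, exact permutation adjusted p = 0.0389) and ran from 1.09 to 1.51 with each array left out, passing without Col-0 replicate 2 at 23 °C (1.51, 0.01) and without Col-0 replicate 3 at 4 °C (1.31, 0.0444). Some differences between responses moved by more than the spread between replicates within 1 genotype, without a test. In ozs3 alone they were 0.63 for COR15A minus COR15B, 3.06 for COR15A minus LTI30, 2.43 for COR15B minus LTI30, 0.70 for LTI30 minus COR47, −1.53 for LTI30 minus LEA4-5 and −2.23 for COR47 minus LEA4-5. In Col-0 alone they were 1.72 for COR15A minus LTI30, 2.78 for COR15A minus LEA4-5, 0.09 for COR15B minus LTI30, 2.19 for COR15B minus COR47, 2.1 for LTI30 minus COR47, 1.06 for LTI30 minus LEA4-5 and −1.04 for COR47 minus LEA4-5.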
